A study of Mus musculus with 8 samples.

Results

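The 9 genes described here make, carry, bind, break down or respond to retinoic acid: Rbp4, Stra6, Adh7, Aldh1a1, Aldh1a2, Aldh1a3, Crabp1, Cyp26b1 and Rarb. They were chosen by name, with earlier results of these data known, so counts of them beside shares of all genes only describe. Every probe whose gene name in the scanner files was one of them was taken. That gave 11 probes, with 3 for Rarb and 1 for each of the other genes. They are 9 of the 24458 genes named on the array, and all 9 are among the 17708 genes that were tested. A gene was tested when a probe was well above background on both arrays of at least 1 group. Aldh1a3 met this in the A and B fibroblast types alone.

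Vitamin A travels in blood as retinol bound to retinol-binding protein, and STRA6 takes it from that carrier into cells. Alcohol and retinol dehydrogenases oxidise retinol to retinal, and the ALDH1A enzymes oxidise retinal to retinoic acid, which CRABP proteins bind in the cytoplasm and CYP26 enzymes break down. Retinoic acid acts through its nuclear receptors, RAR paired with RXR, on response elements in DNA, and in the lung it is known for its part in alveolar formation, with lipid-bearing interstitial fibroblasts as a store of retinyl esters.

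Expression was measured on 8 one-colour Agilent arrays, 2 for each of 4 groups. These were 3 sorted fibroblast types of adult lung, called A, B and C, and pulmonary single cells (Pu), the suspension that the sort started from. All cells were freshly isolated from C57BL/6 female mice aged 12 to 16 weeks, with 50000 cells behind each array and 10 ng of RNA put into the amplification, and the samples of a group were prepared independently of each other. Sorting used antibodies to lineage antigens of other cells (TER119, CD45, Lyve-1, CD31, E-Cadherin and CD146) and to Pdgfra, Sca-1 and Thy-1. The combination of the last 3 that defines each type, and the number of mice behind a sample, are not given in the sources used here. Since the labels do not say whether samples shared mice, the p-values measure only the spread between these samples. Arrays are named by group and replicate (A1, A2, B1, B2, C1, C2, Pu1, Pu2).

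The fibroblast arrays carried the label's markers. All 6 fibroblast markers (Pdgfra, Col1a1, Col1a2, Col3a1, Dcn and Lum) were higher in the fibroblasts than in pulmonary single cells. All 5 macrophage, all 5 airway and all 5 blood endothelial markers were lower, as were 4 of 5 alveolar type 2, 4 of 6 mesothelial and 3 of 6 smooth muscle and pericyte markers. The share of genes that differed at least 2-fold between replicates was 5.23% for A and 5.54% for B, whereas it reached 20.9% for C and 31.2% for Pu, and replicates correlated at 0.985 (A and B), 0.947 (C) and 0.915 (Pu). C1 and C2 also differed in the genes of the sorted antigens: Thy1 had scaled log2 signals of 1.85 on C1 and -1.60 on C2, and Ly6a, which encodes Sca-1, 2.93 on C1 and 0.57 on C2. For Rbp4, Adh7, the 3 retinaldehyde dehydrogenases, Lrat and Fabp5, differences that involve C and passed are therefore given with and without each C array. Both Pu arrays were on a slide and scan of their own, so a slide or scan effect and a difference from pulmonary single cells cannot be told apart, whereas the 6 fibroblast arrays shared 1 slide and 1 scan. In bulk samples such as these, fewer cells of a type and less RNA per cell cannot be told apart.

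The array reads each gene through 60-base probes, and the position of a probe within the transcript decides which transcripts it can see. The last 30 bases of the probes that carry the results below follow, in the transcript's sense, with the polyadenylation signals AATAAA and ATTAAA in capitals. Coordinates are those of the whole probe in the array files (mm9). No mm9 gene annotation was used, so the probes are placed by their position in the transcript and not by exon or UTR.
Rbp4, chr19:38191120-38191179, minus strand: caaacttggtttATTAAAcatatagtcacc
Adh7, chr3:137894495-137894554, plus strand: aatttttcaagaaatgaccatcaaaaccac
Aldh1a1, chr19:20717764-20717823, plus strand: gtgactccttgaagtactcaccacacataa
Aldh1a2, chr9:71143931-71143990, plus strand: agaatgtgaaaatgaagatttatgactttt
Aldh1a3, chr7:73535785-73535844, minus strand: gttcagcaatgaaaaAATAAAgttggacac
Rarb at transcript position 3084, chr14:17263367-17263426, minus strand: ttccatggagtctcctggcaaagAATAAAt
Rarb at transcript position 1803, chr14:17264648-17264707, minus strand: agttcaagtgggaatatagcagagcacagt
Rarb at transcript position 375, chr14:17651424-17651483, minus strand: ttctgtgtgattctggacctgtagtaatgt
The probes of Rbp4, Aldh1a3 and the Rarb probe at 3084 hold a polyadenylation signal in these bases. The probes of Aldh1a1, Aldh1a2, Aldh1a3 and of their relative Aldh1a7 share no run of more than 8 bases with one another. The probes were compared only with each other and not with the transcripts of the other genes. Binding of a probe to a relative's transcript was therefore not tested.

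The question of the comparisons was how the fibroblast types differ from the lung suspension and from each other. Set against pulmonary single cells, 3 of the 9 retinoid genes were higher in the mean of the 3 fibroblast types, 0 were lower and 6 did not pass (limma, Benjamini-Hochberg adjusted p under 0.05). They were Rbp4, Adh7 and Aldh1a3. Over all 17708 genes 36.4% passed in this comparison, 20.3% as higher and 16.2% as lower, so 3 of 9 is near the background. The median log2 difference of the 9 genes was 0.02, beside 0.08 for all genes. The split of all calls into 3592 higher and 2862 lower depends on scaling: it was 5281 and 2036 when arrays were scaled on their median, which moved the median of all genes to 0.46, and 2515 and 3911 when scaled on probes above background on all arrays, which moved it to -0.22.

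By type, 4 of 9 were higher and 0 lower in A than in Pu, where 26.5% of all genes passed, 14.8% as higher and 11.7% as lower. In B 4 were higher and 2 lower (29.0% of all genes, 16.1% higher and 12.9% lower), and in C 3 were higher and 0 lower (28.5% of all genes, 14.8% higher and 13.7% lower). Between types, 0 of 9 passed in A minus B (0.0% of all genes). In A minus C 1 was higher (0.384% of all genes, 0.271% higher and 0.113% lower). In B minus C 1 was higher and 1 lower (2.43% of all genes, 1.25% higher and 1.17% lower). The count of 0 in A minus B comes from limma on all 8 arrays, where 2 of the 9 genes and 575 of all genes had an unadjusted p under 0.05. With array weights in the limma fit, Aldh1a1 and Cyp26b1 passed there, as did 150 higher and 93 lower genes in all. Both arrays of a group had the same weight (A 2.26, B 2.55, C 0.594, Pu 0.292). The main fit, by contrast, applies 1 spread to all groups, including C and Pu, whose replicates differed more. With only the A and B arrays in the fit, 0 of all genes passed, and 1953 had an unadjusted p under 0.05.

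**Figure D1:**
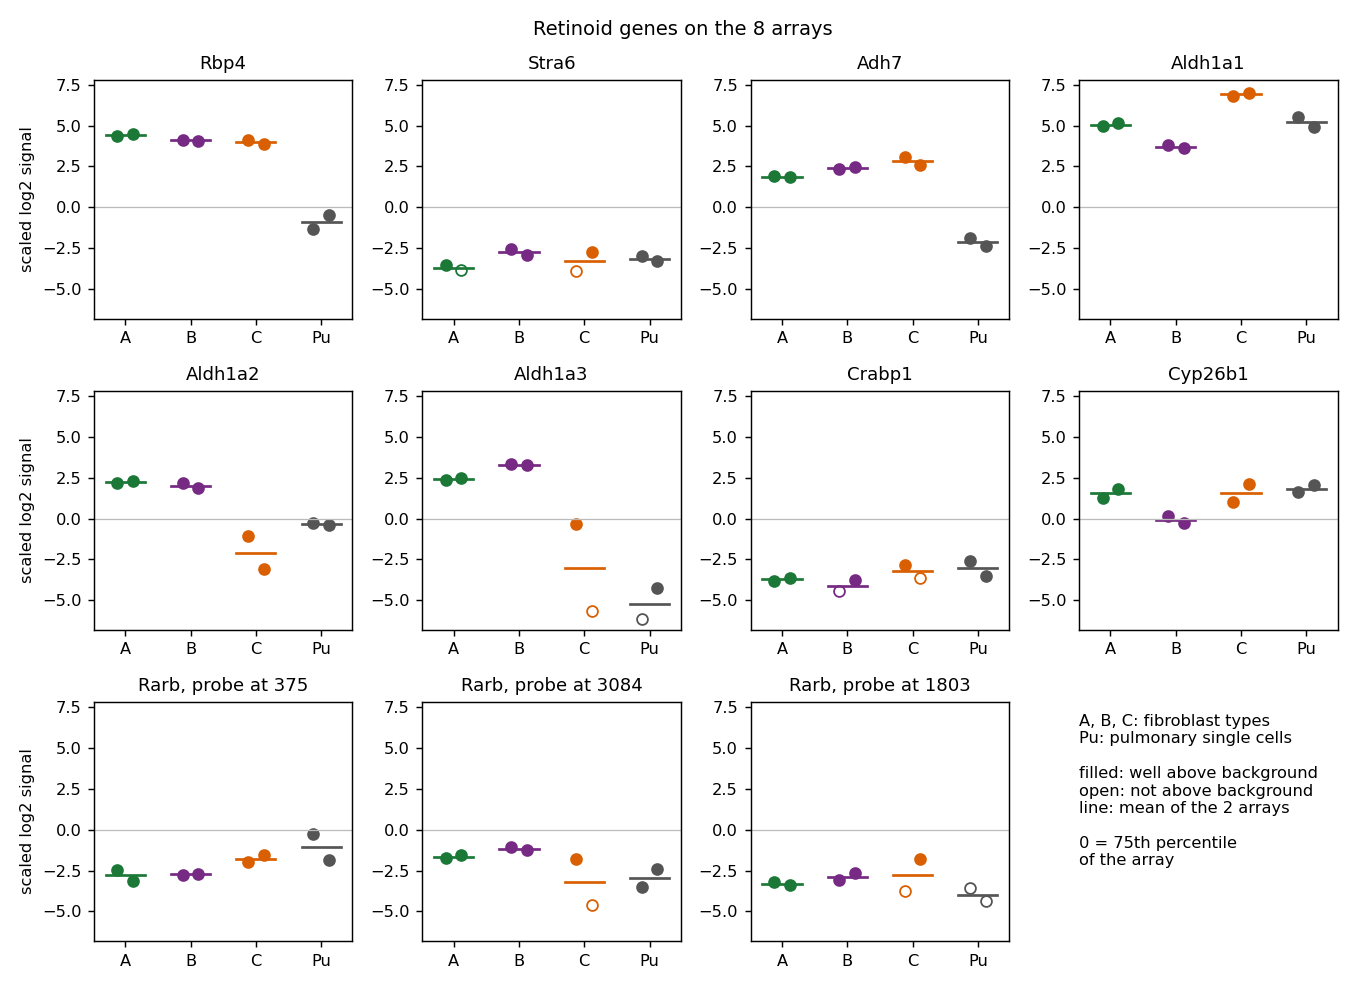
Scaled log2 signal of each of the 11 probes on the 8 arrays, where 0 is the array's 75th percentile. Points are arrays of A, B, C and Pu, open where the probe was not well above background, and lines are means of 2 arrays. Rbp4 and Adh7 lie higher on all 6 fibroblast arrays than on both Pu arrays, Aldh1a1 is highest in C, and Aldh1a2 and Aldh1a3 are highest in A and B.

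Rbp4, the blood carrier of retinol, was the gene with the smallest adjusted p of the 9. Its scaled log2 signal (0 being the array's 75th percentile) was 4.35 and 4.46 for the A arrays, 4.15 and 4.04 for the B arrays and 4.12 and 3.88 for the C arrays, against -1.30 and -0.46 for Pu1 and Pu2. Every fibroblast array lay above both Pu arrays, and the 3 types lay close together. The mean of the types was higher than Pu by 5.04 ± 0.28 log2 units (SE of the fit, 33.0-fold, limma adjusted p = 4.34e-05). Rbp4 was 38.9-fold higher in A, 31.4-fold in B and 29.4-fold in C (adjusted p = 0.00014 in A and in B, 0.000204 in C). C minus Pu was 4.88, with 4.75 without C1 and 5.0 without C2, past the threshold both times. No difference between types passed: the largest, A minus C, was 0.40 with a 95% interval of -0.41 to 1.22. In each of the 19 alternatives run for the mean of the types the call was kept, with differences from 4.30 to 5.46.

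Stra6, the receptor that takes retinol from the carrier, was dim throughout. Its signal was -3.51 and -3.85 in A, -2.54 and -2.91 in B and -3.90 and -2.70 in C, against -2.97 and -3.28 in Pu, and A2 and C1 were not well above background. B lay above and A below both Pu arrays, and C overlapped them. The mean of the types differed from Pu by -0.11 (95% interval -0.95 to 0.73, limma adjusted p = 0.825), and the smallest adjusted p of its 7 comparisons was 0.377.

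Adh7, a class IV alcohol dehydrogenase that oxidises retinol, was the second gene that was high in all 3 types. Its signal was 1.92 and 1.84 in A, 2.34 and 2.44 in B and 3.10 and 2.60 in C, against -1.87 and -2.37 in Pu. No fibroblast array came near the Pu arrays. The mean of the types was higher by 4.50 ± 0.26 (22.6-fold, limma adjusted p = 4.59e-05), and by type Adh7 was 16.1-fold higher in A, 22.8-fold in B and 31.4-fold in C (adjusted p = 0.000233, 0.000144 and 0.000151). C minus Pu was 4.97, with 4.72 without C1 and 5.22 without C2, past the threshold both times. The types followed the order C, B, A without overlap of neighbours, but no difference between types passed (A minus C -0.97, 95% interval -1.71 to -0.22, adjusted p = 0.268). The call against Pu was kept in all 19 alternatives run for the mean of the types, with differences from 3.38, under normexp background correction, to 4.87.

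**Figure D2:**
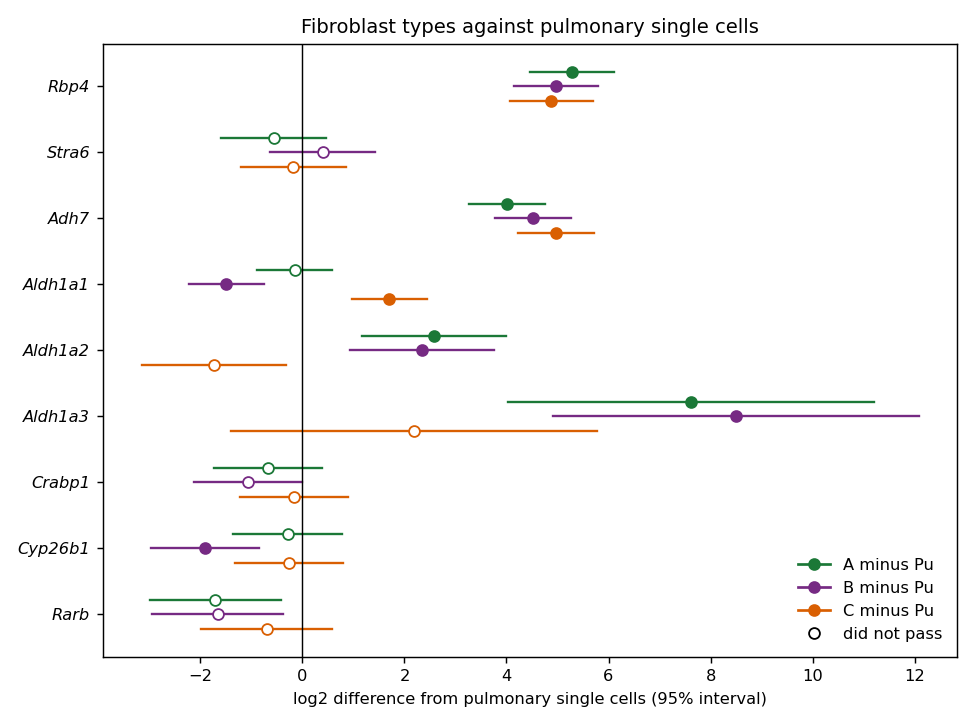
Log2 difference of each fibroblast type from pulmonary single cells for the 9 genes, with the 95% interval of the limma fit over 8 arrays. Filled points passed at an adjusted p under 0.05. Rbp4 and Adh7 have the 3 types together on the right, while Aldh1a1 has B on the left of 0 and C on the right, and Aldh1a2 has A and B on the right.

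Of the 3 retinaldehyde dehydrogenases, Aldh1a1 was highest in C, and Aldh1a2 and Aldh1a3 were highest in A and B. Aldh1a1, the enzyme widespread in adult tissues, had signals of 4.97 and 5.15 in A, 3.79 and 3.64 in B and 6.81 and 7.0 in C, against 5.52 and 4.90 in Pu. Both C arrays lay above and both B arrays below every other array, and A lay within the range of Pu. Aldh1a1 was higher in C than in Pu by 1.70 ± 0.31 (3.24-fold, limma adjusted p = 0.00756; 1.80 without C1 and 1.60 without C2, past the threshold both times) and lower in B, with a difference of -1.49 ± 0.31 (2.81-fold, adjusted p = 0.0123). A differed from Pu by -0.15 (95% interval -0.88 to 0.59, adjusted p = 0.754). With C above and B below, the mean of the types differed from Pu by 0.02 (95% interval -0.58 to 0.62).

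Between types, Aldh1a1 was lower in B than in C, with a difference of -3.19 ± 0.31 (9.13-fold, limma adjusted p = 0.00587), and the difference was -3.29 without C1 and -3.09 without C2, past the threshold both times. Without B1 or without B2 neither this difference nor B minus Pu passed, with B minus C at an adjusted p of up to 0.075. A minus C was -1.84 and A minus B was 1.35, and neither passed (adjusted p = 0.0693 and 0.475). The order of the 4 groups was C, Pu, A, B, in which the neighbours Pu and A overlapped. With only the 4 compared arrays in the fit, the calls of B and of C against Pu were lost (adjusted p = 0.05002 and 0.0747).

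Aldh1a2, the enzyme that makes most embryonic retinoic acid, had signals of 2.17 and 2.31 in A, 2.14 and 1.87 in B and -1.07 and -3.08 in C, against -0.28 and -0.40 in Pu. All 4 A and B arrays lay above Pu, both C arrays lay below it, and C1 and C2 were 2.01 apart. In unscaled intensity C2 had 13.4 units, close to the lowest signal well above background on that array (11.1), while C1 had 67.2. Aldh1a2 was higher than in Pu by 2.58 ± 0.60 in A (5.99-fold, limma adjusted p = 0.0191) and by 2.35 ± 0.60 in B (5.09-fold, adjusted p = 0.0259). C minus Pu was -1.74 (adjusted p = 0.0692; -2.74 without C1 and -0.73 without C2). A minus B was 0.24 (95% interval -1.18 to 1.65). The A minus Pu call was lost without Pu1, Pu2, A1 or A2, and the B minus Pu call when any one of the 6 A, B and Pu arrays was left out.

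Aldh1a2 was the only one of the 9 that passed in both A minus C and B minus C. It was higher in A than in C by 4.32 ± 0.60 (limma adjusted p = 0.0478) and in B than in C by 4.09 ± 0.60 (17.0-fold, limma adjusted p = 0.0205). The size rests on which C array is used: A minus C was 5.33 without C1 and 3.32 without C2, and B minus C was 5.09 without C1 and 3.08 without C2. The A minus C call, close to the threshold, was lost in 11 of the 20 alternatives, among them leaving out C2, and the B minus C call in 5 of 20. Aldh1a2 is also known from mesothelial cells. Of the 6 mesothelial markers, Msln, Upk3b, Lrrn4 and Upk1b were not well above background on any A or B array, while Wt1 and Rspo1 were on all 4. The summed scaled signal of the 6 was 2.26 to 2.99 on A and B arrays and 1.04 to 1.29 on C arrays, against 5.36 and 2.75 on Pu1 and Pu2. Rspo1 had mean scaled log2 signals of 1.33 in A and 0.87 in B, against -2.20 in C and -0.95 in Pu. The A and B sums therefore rest largely on Rspo1 and do not stand for the 6 markers together.

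Aldh1a3, which makes retinoic acid in parts of the embryo such as the eye, had the widest range of the 9. Its signal was 2.34 and 2.50 in A, 3.34 and 3.25 in B and -0.36 and -5.66 in C, against -6.12 and -4.28 in Pu. In unscaled intensity units these were 948 and 1061 in A, 1823 and 1606 in B and 111 and 2.24 in C, against 1.84 and 13.4 in Pu. The 4 A and B arrays were bright, C1 stood between them and Pu, and C2 and Pu1 were not well above background. Aldh1a3 was higher than in Pu by 7.62 ± 1.52 in A (limma adjusted p = 0.0106) and by 8.49 ± 1.52 in B (adjusted p = 0.00652). With the dim array Pu1 set to the lowest signal well above background there, the differences were 6.48 in A (89.1-fold) and 7.35 in B (163-fold). Aldh1a3 entered the test through A and B, the groups where it is high. With Pu1 and C2 dim, it had no place in the alternative limited to probes above background on all arrays. The B call was kept in all 19 alternatives run, with differences from 4.72 to 9.42, and the A call was lost without Pu1, A1 or A2.

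The mean of the types was higher than Pu by 6.10 ± 1.24 in the fit (limma adjusted p = 0.00871), and by 5.34 (40.6-fold) with the dim arrays C2 and Pu1 set to the lowest signal well above background there. In C the fitted difference was 2.19 (95% interval -1.39 to 5.78, adjusted p = 0.323). It was 4.84 without C2, past the threshold. Without C1 it was -0.46, which has no measured direction, since C2 and Pu1 were not well above background. Without Pu1 the mean difference fell to 5.18 and no longer passed, and normexp correction brought it to 3.16, past the threshold. A minus C was 5.43 and B minus C was 6.30 (4.27 and 5.15 with C2 at the lowest signal well above background), and neither passed (adjusted p = 0.207 and 0.0949). Both passed under normexp correction (3.13 and 3.92), and B minus C also with array weights. Without C1, where the C type is the dim array C2 alone, A was at least 54.7-fold and B at least 100.2-fold higher than C. These bounds were not themselves tested. Without C2 the differences were 2.77 and 3.65, and neither passed. Thy1 and Ly6a were also higher on C1 than on C2, and their part in the C-type values of Aldh1a2 and Aldh1a3 was not tested.

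**Figure D3:**
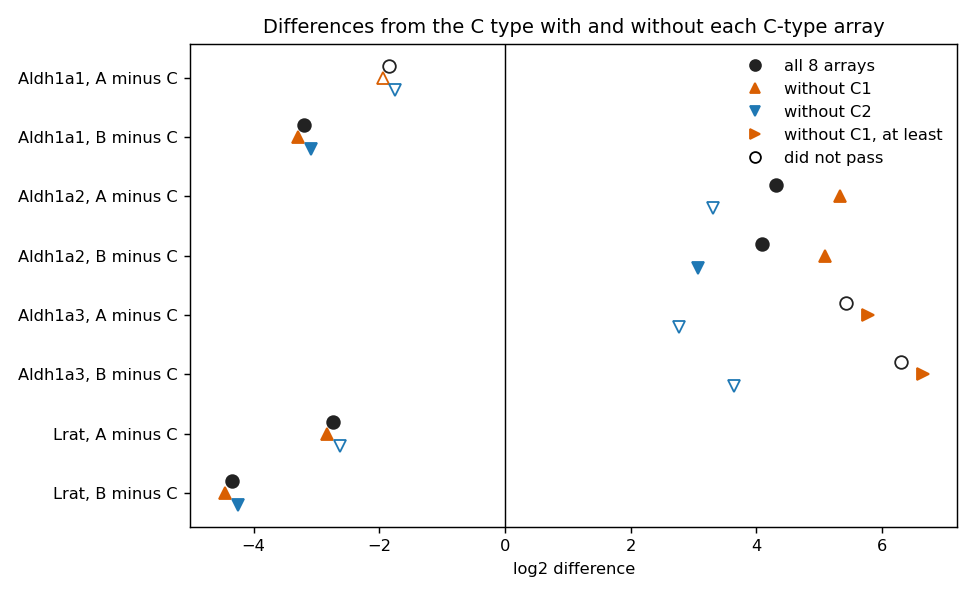
Log2 differences of A and B from C for the 3 retinaldehyde dehydrogenases and for Lrat, in the limma fit with all 8 arrays, without C1 and without C2. Filled symbols passed at an adjusted p under 0.05. Aldh1a1 and Lrat barely move with the array left out, while Aldh1a2 moves from 3.32 to 5.33 in A minus C. For Aldh1a3, A minus C is 2.77 without C2, and the right-pointing symbols are lower bounds, since C2 was not well above background. Their filling follows the fit on the measured signal of C2 and does not test the bound.

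Crabp1, a cytoplasmic binding protein of retinoic acid, was near background on all arrays. Its signal was -3.80 and -3.65 in A, -4.45 and -3.77 in B and -2.81 and -3.61 in C, against -2.59 and -3.50 in Pu, and B1 and C2 were not well above background. The groups C and Pu overlapped, and A and B lay below Pu. None of the 7 comparisons passed. The nearest was B minus Pu at -1.07 (95% interval -2.13 to -0.01, limma adjusted p = 0.119).

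Cyp26b1, a cytochrome P450 that breaks down retinoic acid, was lower in B. Its signal was 1.27 and 1.82 in A, 0.14 and -0.30 in B and 1.02 and 2.13 in C, against 1.59 and 2.08 in Pu. Both B arrays lay below every other array, and A, C and Pu overlapped. The difference of B from Pu was -1.91 ± 0.45 (3.76-fold, limma adjusted p = 0.0197), and this call was lost in 6 of 20 alternatives, among them median scaling, leaving out B1, B2 or Pu2, and array weights. A minus B was 1.62 (adjusted p = 0.782) and B minus C was -1.65 (adjusted p = 0.132; -2.20 without C1, where it passed, and -1.09 without C2). The mean of the types differed from Pu by -0.82 (adjusted p = 0.124).

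Rarb, which encodes a retinoic acid receptor and is itself a classical target of retinoic acid, gave different answers by probe. The brightest probe, at transcript position 375, had signals of -2.44 and -3.12 in A, -2.75 and -2.71 in B and -1.99 and -1.56 in C, against -0.26 and -1.88 in Pu. A and B lay below both Pu arrays, and C overlapped them. With this probe standing for the gene, the mean of the types differed from Pu by -1.36 ± 0.44, at the edge of the threshold but not past it (limma adjusted p = 0.0504). The value was -0.54 without Pu1 and -2.17 without Pu2. It passed in 3 alternatives: without Pu2, with scaling on probes above background on all arrays (-1.66), and with testing limited to such probes (-1.36).

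The other Rarb probes ran the other way. The probe at 3084 had signals of -1.76 and -1.54 in A, -1.08 and -1.27 in B and -1.79 and -4.61 in C, against -3.48 and -2.42 in Pu. By group mean it was dimmer than the probe at 375 in Pu (-2.95 against -1.07) and C (-3.20 against -1.77). In A (-1.65 against -2.78) and B (-1.18 against -2.73) it was brighter. The probe that stood for Rarb was thus the brighter of these in Pu and C but not in A and B. The probe at 1803 had -3.22 and -3.40 in A, -3.10 and -2.66 in B and -3.75 and -1.77 in C, against -3.58 and -4.38 in Pu. On the probe at 3084 array C2, and on the probe at 1803 arrays C1, Pu1 and Pu2, were not well above background. A and B lay above Pu on both probes, and C spread across that range. Tested probe by probe, the mean of the types differed from Pu by 0.94 at 3084 and 1.00 at 1803, and neither passed (limma adjusted p = 0.351 and 0.198), against -1.36 at 375 (adjusted p = 0.0644). The probe at 375 lies 386.7 kb from the other 2 in mm9 and is listed against 2 of the 4 RefSeq mRNAs of Rarb, whereas the other 2, which lie 1222 bases apart, are listed against all 4. With the mean of the 3 probes in place of the brightest, the sign of the difference turned to 0.19 in the mean of the types, 0.09 in A and 0.40 in B.

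The promoter listed for Rarb holds the repeat through which retinoic acid receptors are known to act on it. So does that of Cyp26a1, another target and a breakdown enzyme. Promoters of 250 bases before to 50 after the start (RefSeq, GRCm38.p6) were searched on both strands for direct repeats with 1, 2 or 5 bases between the copies, each copy being AGGTCA or a variant of it with G in place of the leading A, T in place of the inner G before T, or both. Of 13 promoters listed for 8 of the 9 genes, 1 held such a repeat, that of Rarb, beside 193 of 32851 promoters of all genes (0.588%, and 0.0974% for a spacing of 5). Promoters listed for other genes of the pathway were searched too. Besides that of Cyp26a1, the promoter of Bco1, a gene not tested here, held a repeat, with a spacing of 1, which is not shown. For Rarb and Cyp26a1 the 120 bases before the start are shown on each gene's own strand. Both copies of the repeat are in capitals, and those of Cyp26a1 read on the opposite strand.
Rarb, chr14:16575477-16575596, minus strand: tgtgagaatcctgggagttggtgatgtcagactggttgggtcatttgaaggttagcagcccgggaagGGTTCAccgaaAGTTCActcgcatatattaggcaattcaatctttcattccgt
Cyp26a1, chr19:37697688-37697807, plus strand: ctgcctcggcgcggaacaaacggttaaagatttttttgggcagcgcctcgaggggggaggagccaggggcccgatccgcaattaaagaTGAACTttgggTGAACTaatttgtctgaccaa
The repeat begins 53 bases before the start in Rarb and 32 in Cyp26a1, with a spacing of 5 in both. A match describes the letters of these windows and says nothing of binding in these cells. The promoter coordinates are in another build than those of the probes. Which of the 4 RefSeq mRNAs of Rarb start at this promoter was not determined, so no Rarb probe is tied to it. Cyp26a1 was well above background on both Pu arrays (-2.57 and -3.17) and on 0 of the 6 fibroblast arrays. It was therefore tested through Pu alone. The fitted difference was -2.40 (limma adjusted p = 0.0106), a call that was lost without Pu1, with array weights and under normexp correction. Against the lowest signal well above background, the fibroblasts lay lower by at least 2.00-fold, a bound that was not itself tested.

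Around the 9 genes, 60 other genes of the pathway were listed by role, of which 46 were tested. These lists too were drawn up with earlier results of these data known. Between the fibroblasts and Pu, 12 of the 46 were higher, 8 lower and 26 did not pass, with a median of 0.13 beside 0.08 for all genes. Over all genes 20.3% were higher and 16.2% lower, so both counts are near the background. In the single types, 8 were higher and 5 lower in A (14.8% and 11.7% of all genes), 7 and 6 in B (16.1% and 12.9%), and 11 and 7 in C (14.8% and 13.7%). In transport and storage 2 of 6 tested were higher and 4 lower. In oxidation and reduction of retinol and retinal 4 of 19 were higher and 2 lower. Among receptors and co-regulators 0 of 8 passed in either direction. Among genes known to respond to retinoic acid 6 of 9 were higher and 0 lower, with a median of 1.60, beside the same 20.3% and 16.2% of all genes. Of the 13 listed responders, Rarres1, Hoxb1, Cdx1 and Stra8 were not tested. The list leaves out 2 targets of retinoic acid counted elsewhere. Of these, Cyp26a1 was lower (-2.40), and Rarb, through its brightest probe, was at -1.36 and did not pass. In breakdown and in intracellular binding of retinoic acid, 1 of 2 was lower and 0 higher in each.

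The storage gene Lrat, which encodes the enzyme that esterifies retinol, was the only one of the 46 that passed between types. Its signal was 2.92 and 2.67 in A, 1.1 and 1.25 in B and 5.42 and 5.63 in C, against 2.38 and 1.66 in Pu. Both C arrays lay above every other array, A lay above Pu and B below it. C was higher than Pu by 3.50 ± 0.33 (11.3-fold, limma adjusted p = 0.000507), and this call was kept in all 20 alternatives (3.61 without C1 and 3.40 without C2). The mean of the types was higher by 1.14 (adjusted p = 0.0159), a call lost under 3 of 19 alternatives, while A minus Pu (0.77) and B minus Pu (-0.85) did not pass. Lrat was lower in B than in C (-4.35 ± 0.33, 20.4-fold, adjusted p = 0.00334) and lower in A than in C (-2.73 ± 0.33, 6.63-fold, adjusted p = 0.0365). The A minus C call was lost in 8 of 20 alternatives, among them leaving out C2 (-2.62; -2.84 and past the threshold without C1), and the B minus C call was lost in 1, without B1 (-4.46 without C1 and -4.24 without C2). The order of the groups for Lrat, with C at the top and B at the bottom, is also that of Aldh1a1, which ranked Pu above A where Lrat ranked A above Pu.

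The other genes named by size were as follows. Adh1, a class I alcohol dehydrogenase that oxidises retinol, was higher by 3.35 ± 0.25 (10.2-fold, adjusted p = 0.000107). The retinol dehydrogenases Rdh10, which makes retinal in the embryo, and Rdh14 were higher by 2.48 and 1.70 (adjusted p = 0.00195 and 0.00173). Each of these genes passed in A, B and C alike.

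Besides Cyp26a1, 4 of the named genes passed as lower in the fibroblasts. Aldh1a7, a mouse relative of Aldh1a1, was well above background on both Pu arrays (0.26 and -0.00) and on 0 of 6 fibroblast arrays. It too was tested through Pu alone, the group where it is high. Its fitted difference was -5.59 (limma adjusted p = 0.000148). The bound, at least 16.0-fold lower, was not itself tested. Fabp5, a fatty acid-binding protein that also binds retinoic acid, was lower (-2.65 ± 0.58, 6.28-fold, adjusted p = 0.0119; -1.95 and not past the threshold without Pu2), and of the 3 types C passed (C minus Pu -3.65, -4.67 without C1 and -2.63 without C2) while A (-2.26) and B (-2.04) did not. Bco2, which cleaves carotenoids, was lower (-1.92, adjusted p = 0.00348), with the 4 A and B arrays well above background and both C arrays not (-1.74 with these set to the lowest signal well above background there). Dhrs9, a dehydrogenase of the same oxidation step, was well above background on both Pu arrays and, of the fibroblast arrays, on B1 and B2 alone. Its fitted difference was -2.02 (adjusted p = 0.038), and -1.50 with the dim arrays set to the lowest signal well above background there. The call was lost in 11 of 18 alternatives, among them normexp correction, where the difference was -0.33.

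Of the genes known to respond to retinoic acid, Rarres2, which encodes chemerin, was higher in the fibroblasts by 2.49 ± 0.29 (5.61-fold, limma adjusted p = 0.000742) and passed in all 3 types. Hoxa4 was higher by 2.67 ± 0.64 (adjusted p = 0.0167; 1.44 and not past the threshold without Pu2) and Meis1, a homeobox cofactor, by 1.91 ± 0.46 (adjusted p = 0.0168; 1.04 and not past the threshold without Pu1). The Hox and Meis genes also pattern mesenchyme, and the fibroblast markers moved with them, with summed scaled signals of 805 to 933 on A and B arrays and 460 to 472 on C arrays, against 52.3 and 59.9 in Pu. The part of cell makeup in these differences was not tested. The 7 genes that passed beyond those chosen by size, named here after their values were seen, were Hoxb5 (1.60), Hoxa5 (1.39), Tgm2 (0.74) and the retinal reductase Dhrs3 (0.71), which were higher, and the lipid genes Lipe (-1.47), Dgat1 (-1.31) and Lpl (-0.79), which were lower. Their adjusted p in limma ran between 0.00306 and 0.0447.

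**Figure D4:**
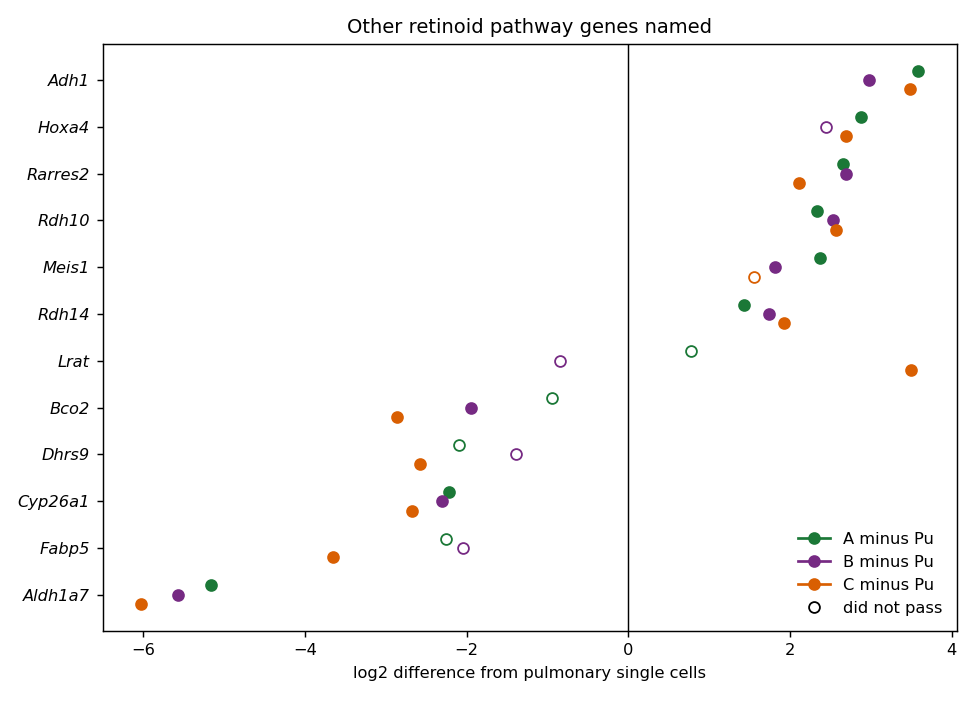
Log2 difference of each fibroblast type from pulmonary single cells for the 12 other retinoid genes plotted, in the limma fit over 8 arrays. Filled points passed at an adjusted p under 0.05. Lrat has C at 3.50 and B at -0.85, while Adh1 and Rdh10 have the 3 types together, and Aldh1a7 and Cyp26a1 were not above background in any fibroblast array.

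Genes with the most similar pattern were sought for the 5 members of the widest range, by the root mean square difference over the 8 arrays after each gene was centred on its own mean, among 15379 genes. For Rbp4 these were Mmp3 (0.192), Pdgfrl (0.251) and Armh4 (0.254). For Adh7 they were Steap4 (0.311), Cpxm2 (0.323) and Cgref1 (0.361), and for Aldh1a1 Septin4 (0.202), Fam210b (0.217) and Sh2d2a (0.283). Aldh1a2 was nearest to Rspo1 (0.451), Lmo1 (0.470) and Fgf18 (0.493), and Aldh1a3 to Ptx3 (0.954), Scara5 (1.27) and Tenm3 (1.39). The distances of Aldh1a3 were the widest of the 5, and they describe 8 arrays that share their groups and slides.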

How the data were processed

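Per the file headers, each array's scanner file was made with Agilent Feature Extraction 10.10.1.1 and holds deposited processed signals, which are background-subtracted intensity values. The authors' deposited value table holds log2 values. Set against the scanner files, each column equalled the log2 processed signal minus 1 constant within 0.02 for 99.7% to 99.8% of 55653 probes (column medians 4.84 to 4.85), and it served as an alternative. From 62976 spots per array, controls and 28 probes flagged as outliers were left out. The log2 processed signal was scaled by subtracting each array's 75th percentile, which was 113 to 260 units, with 54.6% to 68.7% of spots well above background. The kept probe that was brightest over all 8 arrays stood for its gene. Group means of all 8 arrays were fitted in limma 3.58.1 (R 4.3.3, 4 residual and 3.05 prior degrees of freedom), and p-values were Benjamini-Hochberg adjusted over 17708 genes in each of 7 comparisons. With 2 arrays behind each mean, precision is limited by their number. Where a probe was not above background on any array of a group, folds are bounds against the lowest signal well above background. Calls and p-values for such genes are those of the fit on the measured signals. The fit was also run on simulated data in which a gene had the same spread in all 4 groups. Replicates of C and Pu differed more than those of A and B, so that run says nothing of calls involving C or Pu. Same-numbered samples did not deviate together (correlations of -0.0841 to 0.0582), so the numbers were not taken as pairs.

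Named genes were all 9 members, every listed pathway gene that passed between fibroblast types, and those that passed between the 3 types and pulmonary single cells up to the 12 with the largest difference. One gene that met this rule is counted but not reported here. The members and lists were chosen with earlier results of these data known. Alternatives changed scaling, background correction, filters, probe choice, the arrays in the fit and the variance model. Sequences were copied from the array files and from RefSeq promoters, without those of mouse chromosome 18.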

Additional observations from a re-analysis of the deposited data

Results flagged for a closer look

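In 3 genes the fibroblast types differed from pulmonary single cells by unequal amounts, by a test of the difference between types in limma. For Aldh1a1, B minus C was -3.19, with B below and C above pulmonary single cells. For Aldh1a2, A exceeded C by 4.32 and B exceeded C by 4.09, with A and B above and C below pulmonary single cells, though C minus Pu did not pass. For Lrat, A minus C was -2.73 and B minus C was -4.35. For Aldh1a2 the size depends on which C-type array is used, as given above. The A minus C call was lost in 11 of 20 alternatives for Aldh1a2 and in 8 of 20 for Lrat. No group of 4 or more samples was available for a test of single arrays that stand apart.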

How the results depend on the processing

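Of the 19 differences of the 9 genes that passed, 9 were kept under every alternative run: the 4 of Rbp4, the 4 of Adh7 and B minus Pu of Aldh1a3. Of these genes, Aldh1a3 entered the test through A and B alone. With pathway genes named by the rule above, 35 differences that passed were followed through the alternatives. They were these 19, fibroblasts minus Pu of those pathway genes, and C minus Pu, A minus C and B minus C of Lrat. All 35 kept their direction under every alternative, and 17 kept their call. Differences of other pathway genes in single types are not in this count. The number of the 9 genes that passed between the fibroblasts and Pu was 3, and 5 when arrays were scaled on probes above background on all arrays or under normexp correction. In A minus B it was 0, and 2 with array weights. In A minus C it was 1, and it was 2 with array weights or a trended robust variance, 3 under normexp correction, and 0 with quantile scaling, with no filter on dim probes, with the compared arrays alone, with every probe tested on its own and with the replicate block. In B minus C it was 2, with 1 when the compared arrays stood alone, and 3 under normexp correction or array weights. With single arrays left out these counts ranged from 2 to 5 (fibroblasts minus Pu), 2 to 4 (A minus Pu), 3 to 6 (B minus Pu), 3 to 4 (C minus Pu), 0 to 0 (A minus B), 0 to 2 (A minus C) and 0 to 4 (B minus C). Directions turned in Rarb with the mean of its probes, to 0.19, 0.086 and 0.40 in fibroblasts, A and B minus Pu, because 2 of its 3 probes ran the other way, while Aldh1a3 C minus Pu (4.84 without C2) was -0.46 without C1, where no direction was measured since C2 and Pu1 were not well above background. The replicate block, with the replicate numbers as pairs that the data did not bear out, changed the number of members called in A minus C alone. Over all genes, A minus C held 68 calls and 0 with the block, and B minus C 430 and 303. Leaving an array out leaves 1 array in its group, which is then assumed to vary like the others. The blocks by slide and by scan were not run, since each slide and scan held either Pu or fibroblasts, and the compared arrays alone are the full set for fibroblasts minus Pu. Probes near background limit Stra6, Crabp1, Rarb, Aldh1a2 on C2 and, in C and Pu, Aldh1a3.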
